A study of Mus musculus with 15 samples.

Results

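Tumors harvested on day 3 of daily intratumoral poly(I:C) were compared with tumors harvested on day 1, to describe how the early interferon response relates to the later entry of immune cells. The comparison used 6 of the 15 tumors of the time course, 3 from each of these days, chosen by their harvest day alone. All 6 were subcutaneous WEHI-164 tumors, grown from a single mouse fibrosarcoma cell line in wild-type female BALB/c mice with an intact immune system. Each was given 1 µg of poly(I:C) in 25 µL per day by injection into the tumor, with 6 doses planned, although a supplementary legend of the study states a larger daily amount, so the dose is not settled. Harvest days were counted from the first dose. The 3 untreated day 0 tumors were used as the background level, and no vehicle-injected tumor was analysed here. The tumors are written below as day 1 replicates 1, 2 and 3 and day 3 replicates 1, 2 and 3, and values in every tumor are given in that order.

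Poly(I:C), a synthetic mimic of viral double-stranded RNA, is sensed by the endosomal receptor TLR3 and by cytosolic helicases. Sensing leads to secretion of type I interferons, which signal through JAK kinases and STAT transcription factors to turn on a large set of antiviral genes within hours. Interferons also induce chemokines. CXCL9 and CXCL10 attract T cells and natural killer (NK) cells that carry CXCR3, and CCL2 and its relatives attract monocytes, which can become macrophages in tissue. Interferon gamma, made by NK and T cells, in turn induces antigen presentation genes and guanylate-binding proteins.

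Each of the 6 tumors had between 24.8 M and 31.9 M counts. Levels are given as CPM, a gene's count relative to its tumor's TMM-scaled total, and where no count was seen a level of up to 3 counts, or 0.094 to 0.121 CPM, remains possible. Vim, the intermediate filament of mesenchymal cells and not of tumor cells alone, was at 2762 CPM or more in all 6. A pair of tumors stood apart from the others of their day. On the first principal component of the 6 tumors, which held 72.9% of the variance, day 3 replicate 1 lay at 128 and the others between -66.8 and 1.98. That tumor correlated with the rest at 0.894 on average, whereas each of the others did so at 0.951 to 0.966. Day 1 replicate 3 lay at 1.14 on that component, next to day 3 replicate 2 at 1.98 and away from day 1 replicates 1 and 2 at -53.6 and -66.8. No tumor was a repeat of another of its day, since replicate pairs within a day gave a chi-square of 18.8 to 284 per degree of freedom. Pairs across the days were not compared in this way.

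Genes of skeletal muscle, fat and lymph node were abundant in day 3 replicate 1. Summed over 16 skeletal muscle genes, the level was 147, 19.9 and 134 CPM on day 1 and 4705, 243 and 95.4 CPM on day 3. Acta1, the actin of skeletal muscle fibers, reached 894 CPM in that tumor and at most 54.6 CPM in the other 5. The 11 adipocyte genes summed to 357 CPM there and to between 27.2 and 72.1 CPM in the other 5 tumors. Lymph node genes summed to 137 CPM there, against 39.9 CPM in day 3 replicate 3 and 1.52 to 8.59 CPM in the other 4. Ccl21a, a chemokine made by lymph node stroma, was at 53.3 CPM in day 3 replicate 1 and at 0.588 CPM or less elsewhere, whereas Cxcl13, which attracts B cells, was at 77.9 CPM there and also at 36.9 CPM in day 3 replicate 3. The 14 mesenchymal genes summed to 33269 CPM in day 3 replicate 1 and to between 9474 and 13778 CPM in the other 5, while 20 proliferation genes summed to 1704 CPM and to between 3537 and 4491 CPM, respectively. In day 1 replicate 3, erythroid genes summed to 124 CPM, against 10.2 to 28.7 CPM in the other 5. The study's methods state that surrounding tissue was removed at harvest. The part of these tissues in the results below was not tested, so most lists and many genes are also given without day 3 replicate 1, without day 1 replicate 3 or both ways.

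**Figure D1:**
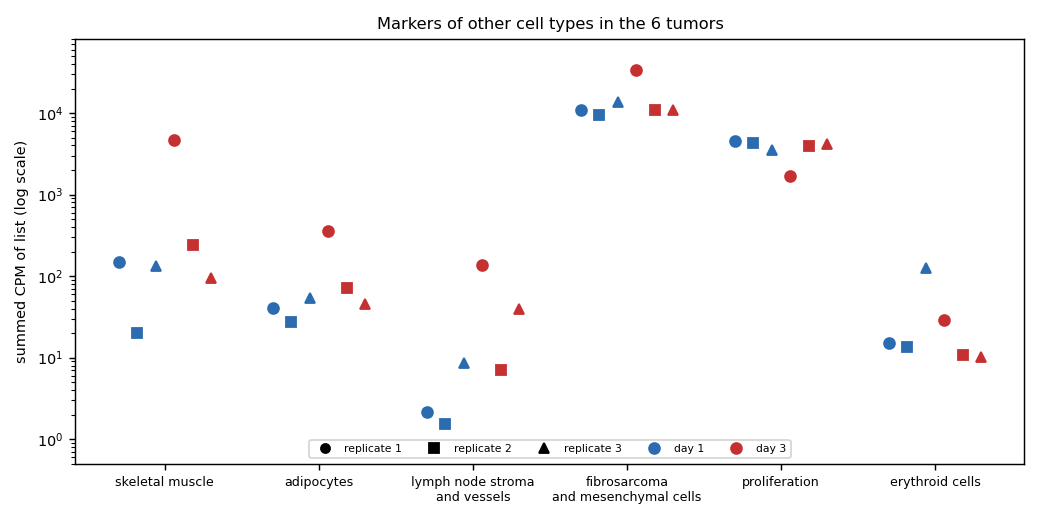
Summed CPM on a log axis of the genes of 6 marker lists in each of the 6 tumors, with day 1 in blue, day 3 in red and a symbol for each replicate. Day 3 replicate 1 (red circles) was the highest tumor for muscle at 4705 CPM, fat at 357 CPM, lymph node at 137 CPM and mesenchymal genes at 33269 CPM and the lowest for proliferation genes at 1704 CPM, and day 1 replicate 3 (blue triangles) was the highest for erythroid genes at 124 CPM.

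Between day 3 and day 1, the quasi-likelihood test of edgeR called 0 of 15494 genes (0%), with 0.264 as the smallest p after Benjamini-Hochberg adjustment. At an unadjusted p under 0.05, 1987 genes were higher on day 3 (12.8%) and 858 were lower (5.54%). Without day 3 replicate 1 these became 200 higher (1.3%) and 405 lower (2.63%) of 15378 genes, and without day 1 replicate 3 they became 2755 higher (17.8%) and 1543 lower (9.98%) of 15455 genes. With both of these tumors left out, 2452 genes were under that threshold in either direction. By chance about 775 of 15494 genes would be expected under it, more than the 605 found without day 3 replicate 1. Of these 605, 473 were also under it, in the same direction, when all tumors were kept, but both fits share every tumor except that one. Counting instead genes whose 3 day 3 tumors all lay on one side of the 3 day 1 tumors gave 1166 higher (7.53%) and 1051 lower (6.78%), and without day 3 replicate 1 it gave 1480 higher (9.55%) and 1476 lower (9.53%). Such a count can only stay equal or rise when a tumor is left out, so it cannot show that a difference survives. DESeq2 called 17 genes higher (0.11%) and 11 lower (0.0713%) of 15422. Day 3 replicate 1 was the highest of the 6 tumors for all 17 and the lowest for 10 of the 11. In 13 of the 17 and in 11 of the 11 the other day 3 tumors did not overlap day 1. Since edgeR called no gene, differences below are described as higher or lower with their unadjusted p. Lists are read against the median log2 fold change over all genes tested, -0.033, and counts of their members against the shares above. In whole tumor RNA, more cells of a type and more RNA per cell cannot be told apart.

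The interferon response was still present on day 3. Its direction between the days changed with a single tumor and with the measure used. Over 34 interferon-induced antiviral effectors, the mean log2 CPM was 6.40, 6.22 and 7.73 on day 1 and 6.68, 7.19 and 6.59 on day 3, against 5.34 to 5.73 in the untreated tumors. All 6 treated tumors were above the untreated ones, and day 1 replicate 3 was the highest of them while day 1 replicates 1 and 2 were the lowest. The median log2 fold change of day 3 against day 1 was -0.15, with 9 of 34 genes higher, 0 under an unadjusted p of 0.05 and 0 without overlap. Leaving out day 1 replicate 3 turned the median to 0.45 with all 34 genes higher and 13 under that threshold, while leaving out day 3 replicate 1 gave -0.05. With all tumors kept, the mean log2 CPM was 6.78 on day 1 and 6.82 on day 3, opposite in sign to the edgeR median. By voom with quality weights, also with all tumors, the median was 0.44. Set against day 0, the edgeR medians were 1.42 for day 1 and 1.31 for day 3, comparisons that share the untreated tumors.

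Isg15 (chromosome 4, 156199424 to 156200818 on GRCm38, minus strand), an interferon-induced ubiquitin-like modifier that is attached to cellular and viral proteins, was at 98.2, 74.8 and 269 CPM on day 1 and 56.1, 166 and 85.4 CPM on day 3. The days overlapped, with the highest value in day 1 replicate 3 and the lowest in day 3 replicate 1, and the log2 fold change was -0.52 ± 0.44 (SE; edgeR, unadjusted p = 0.252, adjusted p = 0.451). Ifit1, which binds foreign RNA ends, ran from 64 to 201 CPM on day 1 and from 61 to 118 CPM on day 3. The antiviral GTPase Mx1 was at 52.7, 38.8 and 169 CPM and then at 65.3, 101 and 53.2 CPM. For both, the top tumor was again day 1 replicate 3 and the second was day 3 replicate 2.

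Rsad2, which encodes the antiviral enzyme viperin, had the lowest log2 fold change of the effectors at -0.77 ± 0.59, with 86.6, 64.4 and 362 CPM on day 1 and 50.5, 163 and 87.9 CPM on day 3. Epsti1, an interferon-induced gene of macrophages and epithelia, had the highest at 0.82 ± 0.43, with 12.7, 11.8 and 31.3 CPM on day 1 and 46.7, 32.2 and 19.8 CPM on day 3. The days overlapped for both genes. Their promoters are shown as the ends of this range, with the 250 bases before each gene start from RefSeq on GRCm38.p6, at chr12:26456453-26456702 on the minus strand for Rsad2 and chr14:77903989-77904238 on the plus strand for Epsti1. Capitals mark the letters GAAANNGAA, the core of the interferon-stimulated response element, searched on both strands.
Rsad2: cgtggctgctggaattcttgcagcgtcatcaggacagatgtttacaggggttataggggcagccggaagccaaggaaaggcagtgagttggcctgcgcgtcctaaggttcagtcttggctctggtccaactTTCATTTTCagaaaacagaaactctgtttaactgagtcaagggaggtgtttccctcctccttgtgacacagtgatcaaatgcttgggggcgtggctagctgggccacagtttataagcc
Epsti1: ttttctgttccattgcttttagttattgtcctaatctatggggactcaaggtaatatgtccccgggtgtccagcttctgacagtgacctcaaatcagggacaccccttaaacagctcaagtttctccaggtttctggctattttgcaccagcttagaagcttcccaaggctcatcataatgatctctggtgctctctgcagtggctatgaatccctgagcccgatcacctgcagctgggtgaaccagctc
The Rsad2 window held 1 match, on the strand opposite to the gene, and the Epsti1 window held 0. In windows of 300 bases, which add 50 bases after the start, 14 of the 27 effectors with an entry held a match (51.9%), as did 2638 of 27025 genes overall (9.76%).

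Interferon genes other than interferon gamma were near the detection limit. Of 19 ligand genes, 17 had at most 3 counts in every one of the 6 tumors. Ifnb1, the interferon beta gene, had 1, 1 and 21 counts on day 1 and 2, 4 and 2 on day 3. The 21 counts were in day 1 replicate 3, the tumor with the highest effector level. Ifng (interferon gamma) was at 1.2, 2.67 and 6.19 CPM on day 1 and 5.55, 8.31 and 5.29 CPM on day 3, with overlapping days and an unadjusted p of 0.21.

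Among 16 interferon signal transducers, 14 were higher on day 3, with a median of 0.22. Of the 16, 2 were under an unadjusted p of 0.05, near the share of all genes higher under it, 12.8%. Without day 1 replicate 3 the median was 0.39 with 7 under it, against 17.8% of all genes. Without day 3 replicate 1 it was 0.15 with 0 under that threshold. Irf7, the transcription factor that amplifies interferon production, was at 221, 173 and 814 CPM on day 1 and at 560, 579 and 359 CPM on day 3. Its 3 day 3 tumors were thus above day 1 replicates 1 and 2 and below day 1 replicate 3, and the log2 fold change was 0.31 ± 0.48. The sensor Tlr3 ran from 22.8 to 47.7 CPM on day 1 and from 30.9 to 37.5 CPM on day 3, so that its day 3 values lay inside the day 1 range. Ifngr1, the ligand-binding chain of the interferon gamma receptor, was at 71.6, 71 and 84.5 CPM and then at 209, 92.1 and 100 CPM without overlap (0.82 ± 0.29, unadjusted p = 0.0137), and at 0.34 ± 0.21 without day 3 replicate 1. Of 11 double-stranded RNA sensors and adaptors, 4 were higher and the median was -0.04, which turned to 0.31 with 8 higher without day 1 replicate 3. Ikbke, a kinase that activates IRF3 and IRF7, had the highest value, with 39.1, 47.8 and 87.6 CPM and then 180, 91.3 and 92.8 CPM (1.06 ± 0.39, unadjusted p = 0.0191). The helicase RIG-I, encoded by Ddx58, had the lowest, with 149 to 256 CPM on day 1 and 133 to 189 CPM on day 3.

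Genes induced by interferon gamma did not separate the days. The 15 inducible GTPases showed a median of 0.12 and the 14 genes of MHC class I presentation 0.04, with 0 under an unadjusted p of 0.05 in either list. Without day 1 replicate 3 these medians were 0.28 and 0.19, with 1 and 0 genes under it. Gbp2 was at 233, 525 and 574 CPM and then at 364, 478 and 467 CPM, and the classical class I gene H2-K1 was at 1158, 1455 and 2043 CPM and then at 1898, 1593 and 1463 CPM. Counts of these close paralogs are uncertain, because reads shared between copies were divided by estimation. MHC class II, found on macrophages, dendritic cells and B cells, had 10 of 10 genes higher and a median of 1.51, yet 0 of 10 without overlap. H2-Eb1, the highest, was at 81.5, 220 and 307 CPM on day 1 and at 1933, 276 and 279 CPM on day 3, and Cd74, the invariant chain, was at 265, 743 and 1032 CPM and then at 4481, 844 and 767 CPM. Both had their highest value, by a wide margin, in day 3 replicate 1. When it was left out the list median was 0.31 and no gene of the list had an unadjusted p under 0.05.

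**Figure D2:**
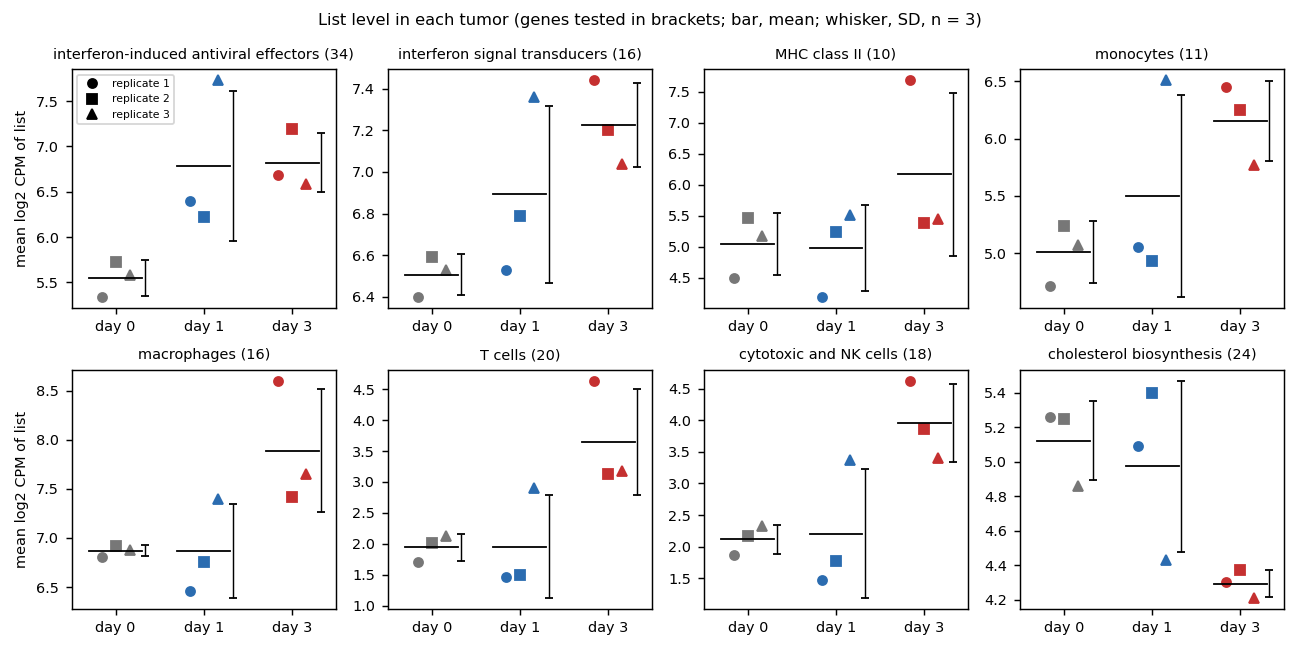
Mean log2 CPM over the tested genes of 8 lists (y axes) in each tumor of days 0, 1 and 3, with a symbol for each replicate, the mean as a bar and the SD (n = 3) as a whisker. Interferon effectors were above the untreated tumors on both days with day 1 replicate 3 the highest at 7.73, T cell, NK cell and macrophage levels were highest on day 3, and the cholesterol level was below 4.43, the lowest day 1 tumor, in all 3 day 3 tumors.

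Chemokines that interferon induces overlapped between the days. Cxcl10 was at 170, 198 and 474 CPM on day 1 and 121, 333 and 249 CPM on day 3, and Cxcl9 was at 131, 260 and 370 CPM and then 529, 363 and 345 CPM. Ccl2, which attracts monocytes, was at 151, 208 and 335 CPM and then 78.5, 310 and 245 CPM, with day 3 replicate 1 the lowest of the 6. The days overlapped for all 3 genes. Over 12 monocyte-attracting chemokines and receptors the median was 0.30 with 1 gene under an unadjusted p of 0.05, where 12.8% of all genes were higher. When day 1 replicate 3 was left out the median was 0.68 with 5 genes under that threshold, against 17.8% of all genes higher. With both that tumor and day 3 replicate 1 left out it was 0.74 with 7, in a fit with 2452 genes under it in either direction. For the 4 genes of CXCR3 and its ligands the median was 0.22, and 0.72 without day 1 replicate 3.

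Among the receptors on responding cells, Cxcr3 was at 0.768, 0.558 and 3.08 CPM on day 1 and 24.7, 3.86 and 3.85 CPM on day 3. All day 3 tumors were above all day 1 tumors, although day 1 replicate 3 came close to day 3 replicates 2 and 3 (2.87 ± 1.13, unadjusted p = 0.0255, and 1.37 ± 1.05 without day 3 replicate 1). Ccr2, the receptor for CCL2, overlapped, with 102 to 144 CPM on day 1 and 115 to 290 CPM on day 3. Ccl5 and Ccl8, which such cells can also secrete, overlapped as well, with Ccl8 at 67.8, 96.3 and 337 CPM and then 704, 362 and 202 CPM.

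Macrophage genes were higher on day 3. All 16 tested genes of the list had a positive log2 fold change, with a median of 1.25, 12 under an unadjusted p of 0.05 and 8 without overlap. The mean log2 CPM of the list was 6.46, 6.75 and 7.40 on day 1 and 8.60, 7.42 and 7.65 on day 3, against 6.81 to 6.92 in untreated tumors. Day 1 replicates 1 and 2 were thus slightly below the untreated tumors and day 1 replicate 3 just below the lowest day 3 tumor. Leaving out day 3 replicate 1 gave a median of 0.62, with all 16 still higher, 9 without overlap and 2 under an unadjusted p of 0.05.

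Those 2 genes were Adgre1 and Siglec1. Adgre1 (chromosome 17, 57358691 to 57483527, plus strand), which encodes the F4/80 antigen, was at 72.5, 84.1 and 173 CPM on day 1 and 467, 192 and 246 CPM on day 3. Its days did not overlap, with a log2 fold change of 1.46 ± 0.44 (edgeR, unadjusted p = 0.00606, adjusted p = 0.264) and 0.99 ± 0.43 without day 3 replicate 1 (unadjusted p = 0.0405). Siglec1 (chromosome 2, 131069220 to 131086765, minus strand), a sialic acid receptor of macrophages that interferon also induces, was at 85.1, 96.2 and 153 CPM and then at 422, 172 and 238 CPM (1.32 ± 0.37, and 0.87 ± 0.35 without that tumor). Complement gene C1qa was at 305, 373 and 638 CPM and then at 1633, 676 and 822 CPM (1.25 ± 0.39, and 0.77 ± 0.36 without that tumor). Phagocytosis receptor genes Mertk and Trem2 had log2 fold changes of 1.32 ± 0.40 and 1.00 ± 0.31, the latter without overlap, and of 0.71 ± 0.33 and 0.52 ± 0.25 without day 3 replicate 1.

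Cd163, a scavenger receptor of tissue-resident macrophages, took a different course. It was at 33.3, 18.4 and 20.8 CPM in the untreated tumors, at 8.42, 4.63 and 15 CPM on day 1 and at 68.2, 15.2 and 22.9 CPM on day 3, so that every day 1 tumor was below every untreated tumor. Its log2 fold change of 1.92 ± 0.69 between the treated days was the highest of the list and was 1.02 ± 0.64 without day 3 replicate 1. Msr1, another scavenger receptor, had the lowest at 0.17 ± 0.21, and it was the gene of the list in which day 3 replicate 1, at 183 CPM, lay below the other day 3 tumors at 270 and 282 CPM.

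Monocyte genes separated the days less. The list of 11 had a median of 0.51 with 9 genes higher and 0 without overlap, and its mean log2 CPM in day 1 replicate 3, 6.51, was above all 3 day 3 tumors at 6.45, 6.25 and 5.77. Ly6c2, the marker of inflammatory monocytes, was at 22.4, 32.1 and 123 CPM on day 1 and 100, 92.7 and 38 CPM on day 3. Without day 1 replicate 3 the list median was 1.43, with 7 genes higher under an unadjusted p of 0.05. Itgam (CD11b), carried by monocytes, macrophages and neutrophils, was at 184, 245 and 362 CPM and then 562, 348 and 462 CPM (0.79 ± 0.29, unadjusted p = 0.017), overlapping through day 1 replicate 3. Neutrophil genes also overlapped through day 1 replicate 3. S100a8, an abundant neutrophil protein, was at 1.34, 0.797 and 8.39 CPM and then 3.9, 4.52 and 4.39 CPM, and the median of 7 neutrophil genes went from 0.28 to 2.0 when day 1 replicate 3 was left out.

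Dendritic cell genes had a median of 1.35 with 12 of 13 higher and 3 without overlap. Xcr1, a receptor of cross-presenting dendritic cells, was at 1.14, 1.4 and 2.33 CPM and then 9.18, 2.61 and 3.62 CPM (1.66 ± 0.57), and Itgax (CD11c) was at 42.4, 43.3 and 62.4 CPM and then 194, 65.9 and 72.5 CPM. Clec10a, a lectin of dendritic cells and macrophages, was at 170 CPM in day 3 replicate 1 and at most 20.1 CPM elsewhere. Leaving out that tumor brought the list median to 0.48 with 0 genes higher under an unadjusted p of 0.05.

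T cell genes were higher on day 3, most of all in replicate 1. The mean log2 CPM over 20 genes was 1.46, 1.49 and 2.91 on day 1 and 4.63, 3.13 and 3.18 on day 3, against 1.70 to 2.12 in untreated tumors. The median log2 fold change was 1.86, 19 of 20 genes were higher, 16 of these had an unadjusted p under 0.05 and 14 did not overlap. Without day 3 replicate 1 the median was 1.09, with 14 genes not overlapping and 0 under an unadjusted p of 0.05. Without day 1 replicate 3 the median was 2.63, with 19 higher genes under that threshold. Set against day 0, the list medians were 0.17 on day 1 and 2.03 on day 3, with the untreated tumors shared.

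Cd3d, a subunit of the T cell receptor complex, was at 1.27, 1.79 and 4.08 CPM on day 1 and 16.4, 4.78 and 5.29 CPM on day 3, without overlap (1.88 ± 0.65, unadjusted p = 0.0125, and 1.07 ± 0.61 without day 3 replicate 1). Cd3e (chromosome 9, 44998740 to 45009627, minus strand) overlapped by a narrow margin, with 6.74 CPM in day 1 replicate 3 and 6.65 CPM in day 3 replicate 2, and was at 28.5 CPM in day 3 replicate 1 (2.10 ± 0.84). Both T cell coreceptors overlapped through day 1 replicate 3.

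Cd8a, the coreceptor of cytotoxic T cells, was at 3.94, 4.9 and 17.3 CPM and then 48.3, 16.3 and 23.5 CPM (1.75 ± 0.74, unadjusted p = 0.0349). Cd4, the coreceptor of helper T cells that some mononuclear phagocytes also carry, was at 4.64, 3.51 and 12.4 CPM and then 74.9, 14.4 and 10.6 CPM, and its log2 fold change of 2.28 ± 0.97 was 0.86 ± 0.90 without day 3 replicate 1. Foxp3, the transcription factor of regulatory T cells, was at 2.2, 2.35 and 3.05 CPM and then 13.3, 4.04 and 5.83 CPM without overlap (1.60 ± 0.65, and 0.96 ± 0.65 without that tumor). The 9 regulatory T cell genes had a median of 0.74, with all 9 higher. Of the 9, 1 was under an unadjusted p of 0.05, near the share of all genes higher under it, 12.8%. The list median was 0.40 with 0 under that threshold when day 3 replicate 1 was left out. It was 1.18 with 2 when day 1 replicate 3 was left out, against 17.8% of all genes higher there. Tcf7, a transcription factor of naive and memory T cells, was the exception in the T cell list. It was at 92.9, 97.4 and 70.9 CPM and then 44.2, 75.7 and 74.4 CPM (-0.43 ± 0.20), and its highest values, 105 to 139 CPM, were in untreated tumors. Its level was above that of Cd3d in all 6 tumors, and the cells it came from were not tested.

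Cytotoxic and NK cell genes were higher in 18 of 18, with a median of 1.73, 10 under an unadjusted p of 0.05 and 10 without overlap. Without day 3 replicate 1 the median was 1.16, all 18 were higher, 10 did not overlap and 1 was under an unadjusted p of 0.05, while leaving out day 1 replicate 3 gave 2.46 with 16 under it. The 1 gene when day 3 replicate 1 was left out was Klre1, an NK receptor, at 2.3, 2.43 and 5.09 CPM on day 1 and 16.6, 7.98 and 7.08 CPM on day 3 (1.68 ± 0.53, unadjusted p = 0.00791, and 1.19 ± 0.54 without that tumor). Ncr1 (chromosome 7, 4337724 to 4345164, plus strand), the activating receptor NKp46 that defines NK cells, was at 2.81, 4.03 and 9.43 CPM and then 45.9, 19.4 and 12.5 CPM, all day 3 tumors above all day 1 tumors (2.25 ± 0.79, unadjusted p = 0.0139). Klrd1, which encodes CD94, had the highest value of the list at 2.41 ± 0.85.

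The cytotoxic granule genes Gzmb and Prf1 were higher in mean on day 3 but overlapped between the days. Gzmb was at 27.9, 41.6 and 105 CPM on day 1 and 72.7, 142 and 79.6 CPM on day 3 (0.75 ± 0.63), and Prf1, which encodes perforin, was at 14.2, 25.2 and 51.1 CPM and then 38.3, 74 and 44.6 CPM. In both genes day 3 replicate 1, the highest tumor for NK receptors, was the lowest of day 3. Pdcd1, which encodes the inhibitory receptor PD-1, was at 1.27, 1.08 and 4.7 CPM and then 16.2, 5.33 and 6.57 CPM without overlap (1.99 ± 0.77, and 1.33 ± 0.78 without day 3 replicate 1). Its ligand gene Cd274 was at 56.2, 130 and 261 CPM and then 201, 199 and 177 CPM, with day 1 replicate 3 the highest. Over the 11 checkpoint genes 9 were higher, with a median of 0.83 and 3 without overlap, while 13 inflammatory cytokines had 8 higher, a median of 0.22 and 0 under an unadjusted p of 0.05. Leaving out day 3 replicate 1 gave 0.49 for checkpoint genes and 0.14 for cytokines, whereas leaving out day 1 replicate 3 gave 1.41 and 0.96, with 4 cytokines then under that threshold.

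**Figure D3:**
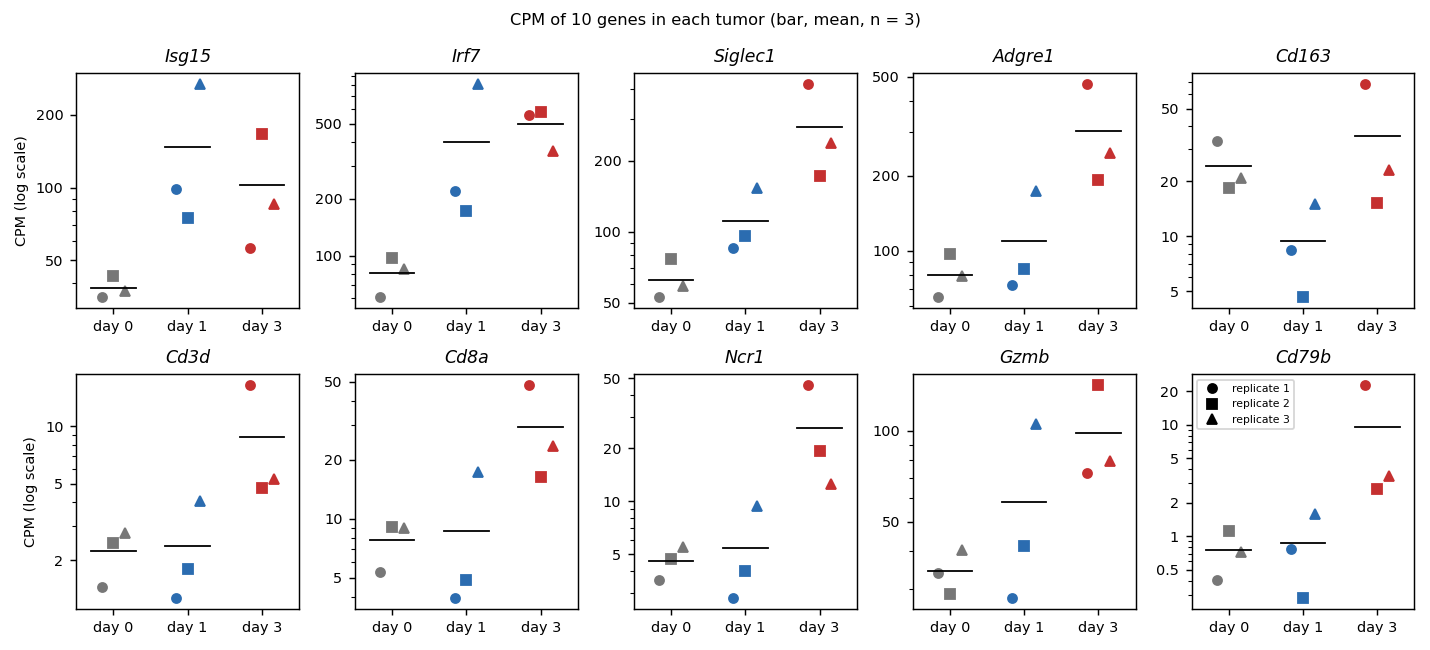
CPM on log axes of 10 genes in each tumor of days 0, 1 and 3, with a symbol for each replicate and the mean of 3 tumors as a bar. Isg15 and Irf7 peaked in day 1 replicate 3 at 269 and 814 CPM, Adgre1, Siglec1, Cd3d, Ncr1 and Cd79b were above every day 1 tumor in all 3 day 3 tumors, and Cd163 was lower on day 1 than in the untreated tumors.

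B cell genes had their highest levels in day 3 replicate 1. The 10 tested genes had a median of 1.76, with 9 higher, 7 under an unadjusted p of 0.05 and 4 without overlap. Of these, 9 were tested when day 3 replicate 1 was left out, with a median of 0.89, 7 higher and 2 under that threshold. Cd79b, a B cell receptor subunit, was at 0.768, 0.279 and 1.59 CPM on day 1 and 22.8, 2.68 and 3.46 CPM on day 3 (3.44 ± 0.91, unadjusted p = 0.00245, adjusted p = 0.264). DESeq2 called it, with an adjusted p of 0.0374. Without day 3 replicate 1 it was 1.78 ± 0.70 higher (unadjusted p = 0.0256). Ms4a1, which encodes CD20, was at 0.601, 0.239 and 0.486 CPM and then 2.54, 1.21 and 0.661 CPM, which came from 6 to 18 counts on day 1 and 17 to 63 on day 3. The immunoglobulin gene Ighm was at 3.51, 10.7 and 16.7 CPM and then 165, 26.5 and 32.2 CPM. Lymph node genes moved with this list in day 3 replicate 1, as given above, and their part was not tested. Both lists hold Fcer2a, which ranked after Cxcl13 and Ccl21a among the lymph node genes in that tumor.

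Of 10 adhesion and extravasation genes, 9 were higher with a median of 1.21, or 0.55 without day 3 replicate 1, and 2 did not overlap. Itga4, which pairs into the integrin VLA-4, was at 24.1, 27 and 28.7 CPM and then 98.3, 37.1 and 42.3 CPM (1.16 ± 0.35, unadjusted p = 0.00621, and 0.58 ± 0.27 without that tumor). Itgal, the alpha chain of LFA-1, was at 34.6, 69.2 and 83.2 CPM and then 241, 114 and 112 CPM (1.32 ± 0.51). These were the 2 genes without overlap. The 13 endothelial genes had a median of 0.69 with all 3 day 3 tumors and of 0.04 without day 3 replicate 1. Cdh5, the cadherin of endothelial junctions, was at 44.3, 32.6 and 52.8 CPM and then 119, 46.3 and 30.9 CPM.

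**Figure D4:**
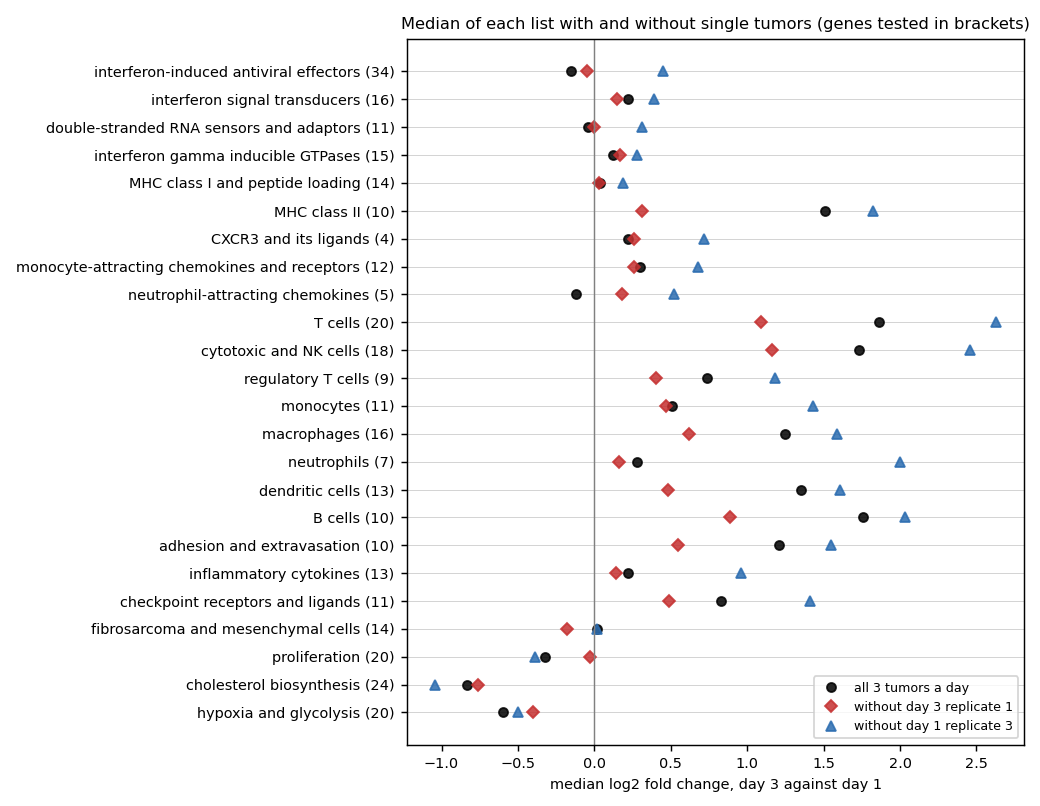
Median log2 fold change of day 3 against day 1 (x axis) for 24 gene lists, with all tumors (black), without day 3 replicate 1 (red) and without day 1 replicate 3 (blue). Leaving out day 3 replicate 1 lowered T cells from 1.86 to 1.09, macrophages from 1.25 to 0.62 and MHC class II from 1.51 to 0.31, and leaving out day 1 replicate 3 moved antiviral effectors from -0.15 to 0.45 and neutrophils from 0.28 to 2.0.

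Genes of cholesterol biosynthesis were lower on day 3, and their median moved little when day 3 replicate 1 was left out. Of 24 genes, 23 had a negative log2 fold change, with a median of -0.83, 16 under an unadjusted p of 0.05 and 10 without overlap. Without day 3 replicate 1 the median was -0.76, 14 did not overlap and 11 were under that threshold, and without day 1 replicate 3 the median was -1.04 with 17 under it. The smallest median with a tumor left out was -0.52, without day 1 replicate 2. The mean log2 CPM was 5.09, 5.40 and 4.43 on day 1 and 4.30, 4.37 and 4.21 on day 3, against 4.86 to 5.26 in untreated tumors. Day 1 replicate 3 was the lowest of day 1.

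Srebf2 (chromosome 15, 82147181 to 82205379, plus strand), the transcription factor that turns this pathway on when sterols are scarce, was at 199, 262 and 146 CPM on day 1 and 79.7, 132 and 115 CPM on day 3. Its days did not overlap and the log2 fold change was -0.89 ± 0.21 (edgeR, unadjusted p = 0.000834, adjusted p = 0.264), or -0.71 ± 0.19 without day 3 replicate 1. DESeq2 called it, with an adjusted p of 0.0365. Fdps, which makes farnesyl diphosphate, was at 85.5, 161 and 39 CPM and then 35.9, 37.6 and 36.4 CPM (-1.37 ± 0.41), so that the 3 day 3 tumors were close together and just below day 1 replicate 3. Sqle, which encodes squalene epoxidase, was at 83.1, 114 and 52 CPM and then 23.6, 50.1 and 40.2 CPM without overlap (-1.13 ± 0.35, and -0.88 ± 0.35 without that tumor).

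Glycolysis and hypoxia genes were also lower. All 20 had a negative log2 fold change, with a median of -0.60, 13 under an unadjusted p of 0.05 and 12 without overlap. Without day 3 replicate 1 the median was -0.40, 12 did not overlap and 1 was under that threshold. Without day 1 replicate 3 it was -0.50 with 2 of 20 under it, near the share of all genes lower there, 9.98%. With both left out it was -0.27 with 1. The gene without day 3 replicate 1 was Pfkl, a phosphofructokinase of glycolysis, at 219, 246 and 230 CPM on day 1 and 115, 179 and 164 CPM on day 3 (-0.60 ± 0.19, and -0.43 ± 0.17 without that tumor). Car9, the carbonic anhydrase induced by hypoxia, was at 60.4, 57.7 and 81.4 CPM and then 15.6, 35.8 and 50.1 CPM (-0.97 ± 0.44). In both genes day 3 replicate 1 was the lowest of the 6.

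Proliferation genes were lower on day 3 in 20 of 20 with a median of -0.32, but 0 of 20 had an unadjusted p under 0.05, and without day 3 replicate 1 the median was -0.03. Mesenchymal genes split. Collagen genes were high in day 3 replicate 1, with Col1a2 at 7625 CPM there and 229 to 1297 CPM in the other 5, whereas Prrx1, a transcription factor of mesenchymal cells, was at 133, 134 and 133 CPM on day 1 and 111, 111 and 117 CPM on day 3 (-0.24 ± 0.07, unadjusted p = 0.00479, and -0.23 ± 0.07 without that tumor).

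**Figure D5:**
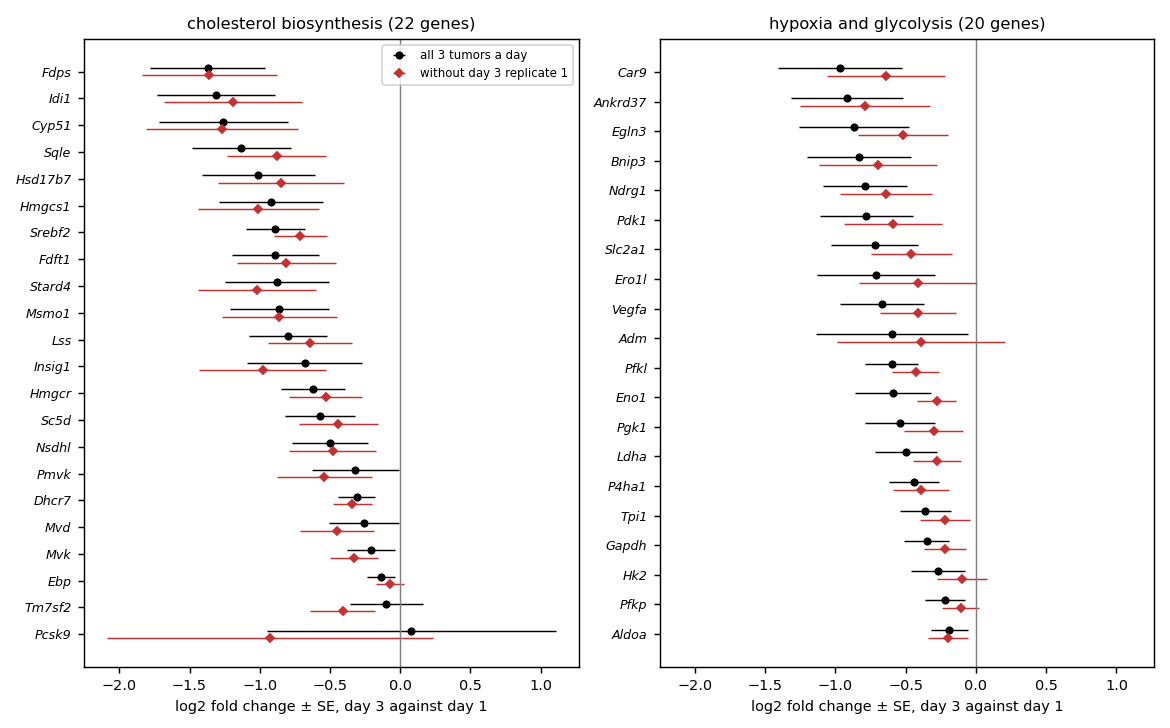
Log2 fold change ± SE of day 3 against day 1 (x axis) for 22 genes of cholesterol biosynthesis (left) and 20 of hypoxia and glycolysis (right), with all tumors (black) and without day 3 replicate 1 (red). In the left panel 21 of 22 black points lie below 0, Fdps among them at -1.37, and most red points lie near their black ones, while in the right panel the red points are nearer to 0, with medians of -0.60 and -0.40.

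The genes ranked by their p-values were taken without regard to the lists. Among those higher on day 3 without overlap, Kbtbd6, an adaptor of a ubiquitin ligase, had the smallest edgeR value (log2 fold change 1.88 ± 0.36, unadjusted p = 0.000167, adjusted p = 0.264). It rested on 5, 5 and 6 counts on day 1 and 22, 13 and 19 on day 3, which are 0.167 to 0.199 CPM and 0.478 to 0.886 CPM. It was at 0.539 to 0.56 CPM in the untreated tumors. Bach2, a transcription factor of lymphocytes, was at 7.45, 7.02 and 6.35 CPM and then 18, 10 and 12.5 CPM (0.96 ± 0.22, and 0.69 ± 0.19 without day 3 replicate 1). Pm20d1, a secreted enzyme that conjugates fatty acids and amino acids, and Tmem14a were 1.51 ± 0.33 and 1.34 ± 0.31 higher, from at most 3.86 CPM.

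Greb1, Slc16a12, Angptl7 and Sult1a1 completed the 8 highest-ranked genes and had their highest values in day 3 replicate 1. Greb1, a gene induced by steroid hormone receptors, was at 0.0334, 0.12 and 0.227 CPM on day 1 and 23.7, 0.294 and 2.76 CPM on day 3, and the other 3 reached 9.82 to 22 CPM in day 3 replicate 1 and at most 3.69 CPM elsewhere. Without that tumor their log2 fold changes were 3.52, 1.77, 1.42 and 1.57, against 6.08, 3.83, 2.54 and 3.68 with it. The other day 3 tumors lay above day 1 in all 4, as the choice of genes without overlap required.

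Among genes lower on day 3, the 8 with the smallest p-values included Srebf2, Vegfb, Sord, Kremen1, Nlgn2, Adamts7 and Cdkn2a, with log2 fold changes between -0.89 and -0.37. Vegfb (chromosome 19, 6982473 to 6987651, minus strand), a growth factor of the VEGF family, was at 31.1, 30.1 and 31.4 CPM on day 1 and 17.6, 24.8 and 23 CPM on day 3 (-0.50 ± 0.12, and -0.37 ± 0.09 without day 3 replicate 1). Sord, which encodes sorbitol dehydrogenase, was at 34.8, 39.2 and 34.5 CPM and then 30.2, 26 and 27.9 CPM (-0.37 ± 0.09, and -0.43 ± 0.08 without it). Kremen1, a Wnt coreceptor, was at 86.7, 82.4 and 77 CPM and then 63.2, 57.3 and 60.4 CPM (-0.44 ± 0.11, and -0.48 ± 0.11 without it). Sord and Kremen1 thus gave slightly larger values without the tumor that stood apart. Cdkn2a, the cell cycle inhibitor locus, was at 16.2, 20 and 14.5 CPM and then 6.6, 10 and 11.5 CPM.

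When day 3 replicate 1 was left out, the ranking kept Kbtbd6, Pm20d1, Bach2 and Tmem14a among the 8 higher genes and Sord, Kremen1 and Vegfb among the 8 lower ones. Gm7785, Col17a1, Scd3 and Sfn joined the former, from at most 7.2 CPM, and Rps12, Gm26602, Rgma, Arsa and Kcnq1 joined the latter. Rps12, a ribosomal protein gene with many processed copies and therefore an uncertain count, was at 116, 123 and 73.6 CPM on day 1 and 86.1, 16.8 and 21.1 CPM on day 3, with -1.34 ± 0.53 over all tumors and -2.46 ± 0.39 without day 3 replicate 1 (unadjusted p = 4.01e-05, the smallest of that fit, adjusted p = 0.617). Gm26602 was at 0.935 to 1.09 CPM in 4 tumors and had no count in day 3 replicates 2 and 3. Gm43738, which DESeq2 called lower, had 28, 44 and 6 counts on day 1 and 0 in all 3 day 3 tumors, and its count is uncertain because it overlaps Fdps on the same strand.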

How the data were processed

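RNA of WEHI-164 tumors was sequenced with 3 mice a harvest day. According to the study's methods and labels, the authors checked poly(A) reads with FastQC, estimated transcript abundance with kallisto, summed transcripts to genes with tximport on mm10 (GRCm38) and deposited the estimated counts of each gene in whole numbers, with 1 column for each tumor. The transcript set and strandedness are not given in the sources used here. Columns number the time points, and the harvest day came from each tumor's label. Of 32544 entries in the table, 9156 were at 0 in every tumor. A single entry whose name had become a date, with at most 0.0268% of a tumor's counts, was left out. CPM are counts scaled by TMM library totals.

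Genes above 0.366 CPM in at least 3 of 15 tumors were kept. edgeR 4.0.16 (R 4.3.3) was fitted to all 15 tumors, which share a single estimate of spread, with no term but harvest day. Day 3 was set against day 1 by its quasi-likelihood F test, two-sided and called at an adjusted p under 0.05 (Benjamini-Hochberg). Unadjusted p-values given without another tool are from this fit. The code was tested on simulated data. Fits without a tumor keep the other tumors, so that a smaller arm is assumed to vary like the rest. Lists are described by counts and medians, without a test, and their level is the mean log2 CPM with a prior count of 2. Alternatives were DESeq2 1.42.0, RLE factors, library totals, no filter, the 6 tumors alone, robust spread, voom with quality weights (limma 3.58.1), a replicate block and leaving out each tumor. Promoter motif shares leave out chromosome 18. Intervals from a count of 0 cover counting error only.

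Members and lists were chosen with earlier results of these data known. Named were 30 standard markers, the lowest and highest member of each interferon or infiltration list, the 8 higher and 8 lower genes with the smallest p among genes without overlap, with and without day 3 replicate 1, and up to 3 members of each other-tissue list by their CPM in that tumor. Of the genes the rule names, some are covered only by their list. Some items are not reported here. Further list members (such as Mx1, Ifngr1, Siglec1, Cd3d, Klre1, Cd79b, Ighm, Itga4, Fdps, Pfkl and Prrx1, and also Gm43738) were named after their values were seen.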

Additional observations from a re-analysis of the deposited data

How the results depend on the processing

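The edgeR count of 0 called genes stayed at 0 in every alternative run with edgeR or limma. DESeq2 called 28 genes, and 2, 0 and 2004 with day 1 replicate 1, 2 or 3 left out and 3, 1423 and 1391 with day 3 replicate 1, 2 or 3 left out, a set of fits chosen after seeing the data. The 2845 genes at an unadjusted p under 0.05 were 928 with the 6 tumors alone and 605 to 4719 when a tumor was left out, lowest without day 3 replicate 1. With the replicate block the number was 1962 and 0 were called. Equal replicate numbers mark separate mice, and the deviations of same-numbered tumors correlated at -0.205, 0.272 and -0.531, so the numbers were not taken to pair them.

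The effector median ran from -0.38 to 0.45 when a tumor was left out, was 0.44 by voom with quality weights and 0.58 with both day 3 replicate 1 and day 1 replicate 3 left out (chosen after seeing the data). Monocytes ran from 0.29 to 1.43, with 1.20 without both, and macrophages from 0.62 to 1.59. T cells (1.09 to 2.63) and cytotoxic and NK cells (1.16 to 2.46) stayed positive. Isg15 turned to 0.34 by voom and 0.53 without both, and ran from -1.06 to 0.25 with a tumor left out. Rsad2 turned to 0.51 and 0.72, and ran from -1.31 to 0.42. Irf7 ran from -0.05 to 1.35. The cause was not tested. Of 884 alternative values for 59 named genes, 7 were labelled as reversed and 10 were called only by DESeq2. The label left out some changes of sign, so 7 is not the number of values that changed sign. With 3 tumors a day, genes below about 1 CPM rest on few counts.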
